A study of Arabidopsis thaliana and Ginkgo biloba and Brassica rapa with 13 samples.

Results

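The measurements described here are the 5-methylcytosine (m5C) levels of ribosomal RNA (rRNA) in Ginkgo biloba, a gymnosperm, set beside those of 3 flowering plants. These were Arabidopsis thaliana, its relative Brassica rapa and the durum wheat Triticum durum. All 16 rRNA positions of the percentage table were taken, and of these 13 carried a percentage in G. biloba and 3 carried a base letter because its rRNA has no cytosine there. The 11 rRNA reference sequences of G. biloba were compared with those of A. thaliana and T. durum. All plants were wild type, and total RNA was used throughout. The A. thaliana material was 10 day old seedlings grown on soil (3 libraries, of which only the authors' mean was used), T. durum was flag leaf, and G. biloba and B. rapa were labelled as leaf but described in the methods as shoot apex (1 library each). G. biloba came from a botanic garden and A. thaliana and B. rapa from controlled environment rooms, so species, tissue and growth site cannot be told apart. Values without replicates or read depths carry no error, and differences between species were therefore described and not tested.

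RNA bisulfite sequencing (RBS-seq) converts unmethylated cytosine to uracil, so that a cytosine remaining in the reads marks a candidate m5C. A site was called at 20% methylation or more with a coverage of at least 5 reads. Plants hold ribosomes in the cytosol, the chloroplast and the mitochondrion, each built on rRNA from its own genome, and the organelle rRNAs resemble those of bacteria. In yeast, cytosines of the large subunit rRNA are methylated by Rcm1 and Nop2. Their relatives in plants are NSUN5, which methylates C2268 of Arabidopsis nuclear 25S rRNA, and the NOP2 proteins. In Escherichia coli, RsmB is an m5C methyltransferase of the small subunit rRNA. Sites are named here by their position in the Arabidopsis reference, counted from 1 at the 5′ end.

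The sequences around the sites called in G. biloba are shown first because the comparison of levels depends on whether the same cytosine, in the same context, was measured in each plant. Each runs 5′ to 3′ over 41 bases of the deposited reference, written as DNA, with the site as the capital. The nuclear 25S and mitochondrial 26S references of G. biloba, and all those of T. durum, were built with the Arabidopsis sequence as guide. Whether bases of the guide remain in them was not tested, and B. rapa sequences were not used. In the nuclear 25S and chloroplast 23S rRNAs, these sequences were identical in G. biloba, A. thaliana and T. durum.
Nuclear 25S C2268: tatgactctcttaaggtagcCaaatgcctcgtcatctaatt
Nuclear 25S C2860: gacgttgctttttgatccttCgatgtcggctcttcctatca
Chloroplast 23S C1940: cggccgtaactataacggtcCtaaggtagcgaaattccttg
Chloroplast 23S C1977: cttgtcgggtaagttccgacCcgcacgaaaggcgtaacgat

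At C916 of chloroplast 16S rRNA the A. thaliana and T. durum sequences were the same and G. biloba differed from both at 2 bases. Counted from the first base of the sequence, with the flowering plant base first, these were T11C and A24C.
Chloroplast 16S C916, G. biloba: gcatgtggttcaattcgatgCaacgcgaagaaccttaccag
Chloroplast 16S C916, A. thaliana: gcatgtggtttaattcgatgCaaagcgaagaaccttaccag

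At C960 of mitochondrial 18S rRNA, G. biloba differed from A. thaliana at 1 base, A20G, directly 5′ of the site. It differed from T. durum at 4 bases, A20G, A24C, A28C and G30A.
Mitochondrial 18S C960, G. biloba: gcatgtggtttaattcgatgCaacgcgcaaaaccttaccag
Mitochondrial 18S C960, A. thaliana: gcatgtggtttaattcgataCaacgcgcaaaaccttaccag
Mitochondrial 18S C960, T. durum: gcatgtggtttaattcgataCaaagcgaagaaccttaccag

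In mitochondrial 26S rRNA the G. biloba and A. thaliana sequences were identical around C1586 and around C1549. T. durum differed from G. biloba at 8 bases around C1586 and at 3 around C1549. The T. durum sequences were those of its own chloroplast 23S rRNA at C1977 and C1940. Its mitochondrial levels are therefore given here but carry that limit.
Mitochondrial 26S C1586, G. biloba: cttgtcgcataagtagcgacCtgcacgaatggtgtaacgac
Mitochondrial 26S C1586, T. durum: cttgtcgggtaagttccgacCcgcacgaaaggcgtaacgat
Mitochondrial 26S C1549, G. biloba: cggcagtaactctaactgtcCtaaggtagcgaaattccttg
Mitochondrial 26S C1549, T. durum: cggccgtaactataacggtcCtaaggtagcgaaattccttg

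G. biloba was methylated at 7 of its 13 cytosines in the table, with 2 sites of nuclear origin, 3 of chloroplast and 2 of mitochondrial origin. The levels lay between 77% and 90% with a median of 84%. They spanned 13 percentage points, whereas the same 7 sites spanned 17 points in T. durum, 54 in A. thaliana and 61 in B. rapa. The other 6 percentages of G. biloba lay between 0% and 1.63%. No value of G. biloba fell between these and 77%, whereas A. thaliana had 28% at mitochondrial C960 and B. rapa had 31% at chloroplast C916.

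**Figure D1:**
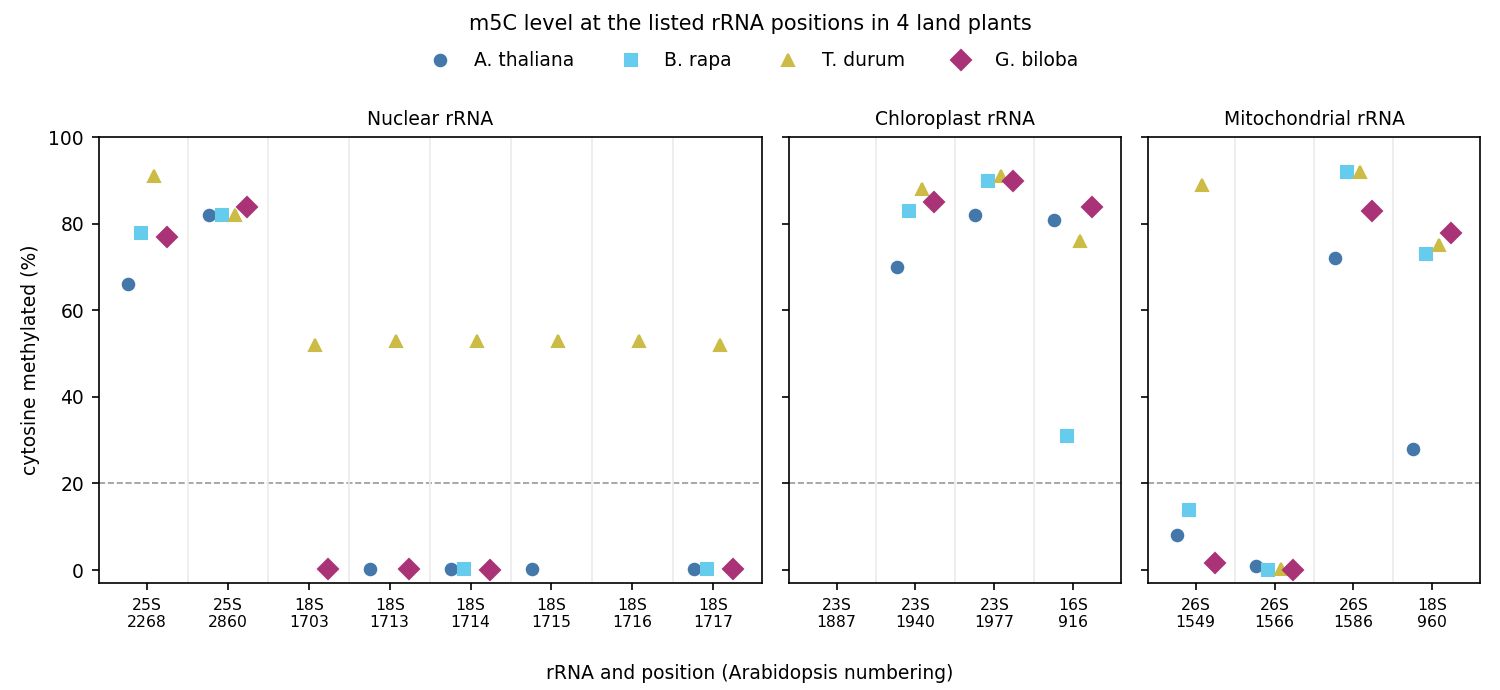
Percentage of methylated cytosine at the 16 listed rRNA positions, grouped by genome of origin, with 1 point per plant (A. thaliana is the authors' mean of 3 libraries); the dashed line is the 20% call and a missing point is a base other than cytosine. The 7 called sites of G. biloba lie between 77% and 90%, and its other percentages lie at or below 1.63%.

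In nuclear 25S rRNA, C2268 was methylated at 77% in G. biloba. A. thaliana had 66%, B. rapa 78% and T. durum 91%, so that the gymnosperm lay inside their range and 1 point below their median. At C2860, G. biloba had 84% and each of the 3 flowering plants had 82%. The sequence within 20 bases was the same in the references of G. biloba, A. thaliana and T. durum at both sites, while the level of C2268 spanned 25 points and that of C2860 spanned 2. In the Arabidopsis genome (TAIR10.1) an exact match of 41 bases places C2268 at 8412 and C2860 at 9004 on chromosome 2, plus strand, and at 14202383 and 14202975 on chromosome 3. No rRNA gene is annotated over these copies.

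In chloroplast 23S rRNA, C1940 was methylated at 85% in G. biloba, below the 88% of T. durum and above the 83% of B. rapa and the 70% of A. thaliana. C1977, which lies 37 bases downstream, was the highest site of G. biloba with 90%. B. rapa also had 90%, T. durum had 91% and A. thaliana 82%. G. biloba was thus second among the 4 plants at C1940 and equal to B. rapa at C1977. The chloroplast genome of TAIR10.1 has C1940 at 106630 and C1977 at 106667 (plus strand, annotated 23S rRNA gene), and a further copy of the gene on the opposite strand.

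C916 of chloroplast 16S rRNA was methylated at 84% in G. biloba. A. thaliana had 81%, T. durum 76% and B. rapa 31%, all below G. biloba. The level was 3 points above that of A. thaliana and 8 points above that of T. durum. The G. biloba sequence was the one that differed within the window, at T11C and A24C. Whether these bases bear on the level was not tested. The low B. rapa value set the difference of 53 points from that plant. C916 lies at 101927 on the plus strand in the annotated chloroplast 16S rRNA gene, with a further copy at 136722 on the minus strand.

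In mitochondrial 26S rRNA, C1586 was methylated at 83% in G. biloba. This lay 11 points above the 72% of A. thaliana and 9 points below the 92% found in both B. rapa and T. durum. C1549, which lies 37 bases upstream in the same molecule, was at 1.63% in G. biloba, the lowest of the 4 plants. A. thaliana had 8%, B. rapa 13.8% and T. durum 89%, whose reference there is the chloroplast sequence. The 2 sites of G. biloba thus had levels at opposite ends of the scale, and the level of A. thaliana, with the same 41 bases around each of them, was split the same way. C1566, between them, was at 0% in G. biloba and B. rapa, 0.126% in T. durum and 1% in A. thaliana. Without a read depth, the limit that 0% allows cannot be given. On the minus strand of the Arabidopsis mitochondrial genome, C1586 lies at 141693, C1566 at 141713 and C1549 at 141730. All are within the annotated 26S rRNA gene.

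C960 of mitochondrial 18S rRNA was methylated at 78% in G. biloba. A. thaliana had 28%, B. rapa 73% and T. durum 75%. The gymnosperm was therefore above all 3 flowering plants, by 50 points over A. thaliana and by 5 and 3 points over the others. C960 lies at 127264 on the minus strand, in the annotated 18S rRNA gene of the Arabidopsis mitochondrial genome. With every cytosine read as thymine, as in bisulfite reads, the longest exact run through C960 shared by the mitochondrial and chloroplast references was 69 bases in G. biloba, 56 bases in T. durum and 3 bases in A. thaliana. Before conversion the run in G. biloba was 16 bases. The base 5′ of C960, changed by A20G from A. thaliana to G. biloba, is also the base 5′ of C916 in the chloroplast sequences shown above. The level of C916 in the same G. biloba library was 84%, and the part of chloroplast reads in the C960 value was not tested.

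At its called sites, genome of origin separated the levels of G. biloba by only a few points. The median over its called sites was 85% for the chloroplast and 80.5% for both the nucleus and the mitochondrion. The nuclear, chloroplast and mitochondrial medians of the same sites were 74%, 81% and 50% for A. thaliana, 80%, 83% and 82.5% for B. rapa, and 86.5%, 88% and 83.5% for T. durum. Over these sites the chloroplast median was the highest in each of the 4 plants, by 0.5 points in B. rapa. Over all sites called in T. durum itself the order turned, with 89% for the mitochondrion, whose reference carries the limit given above, and 88% for the chloroplast. G. biloba lay 0.5 points above the middle of the 3 flowering plant medians in nuclear rRNA, 2 points above in chloroplast rRNA and 2 points below in mitochondrial rRNA. Each median rests on 2 or 3 sites, and within chloroplast rRNA the sites of B. rapa ran from 31% to 90%. G. biloba ran from 84% to 90% there.

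The 7 called sites were then compared plant by plant. G. biloba was higher than A. thaliana at 7 of 7 sites, by 2 to 50 points. Against B. rapa it was higher at 4, equal at 1 and lower at 2 sites, and against T. durum it was higher at 3 and lower at 4. The mean absolute difference was 5.71 points from T. durum, 10.3 points from B. rapa and 14.3 points from A. thaliana. A single site carried much of the larger ones, since the difference from A. thaliana was 8.33 points without C960 and that from B. rapa 3.17 points without C916. The difference from T. durum was 4.33 points without C2268. It includes C1586, where the T. durum reference carries the limit given above. It also includes C960, where the mitochondrial and chloroplast references of T. durum differed at 1 of 41 bases. Among the flowering plants themselves the mean absolute differences were 21.1 points between A. thaliana and B. rapa, 17.7 points between A. thaliana and T. durum and 9.43 points between B. rapa and T. durum. Over these 7 sites, the distance of G. biloba from each flowering plant was below the distance of A. thaliana from either of the others. This did not hold over all positions with a percentage, where the mean was 25.9 points between G. biloba and T. durum and 14.1 points between A. thaliana and B. rapa. Set against the median of the flowering plants at each site, G. biloba differed by a median of 2 points. That value was -0.5 points when A. thaliana was left out.

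**Figure D2:**
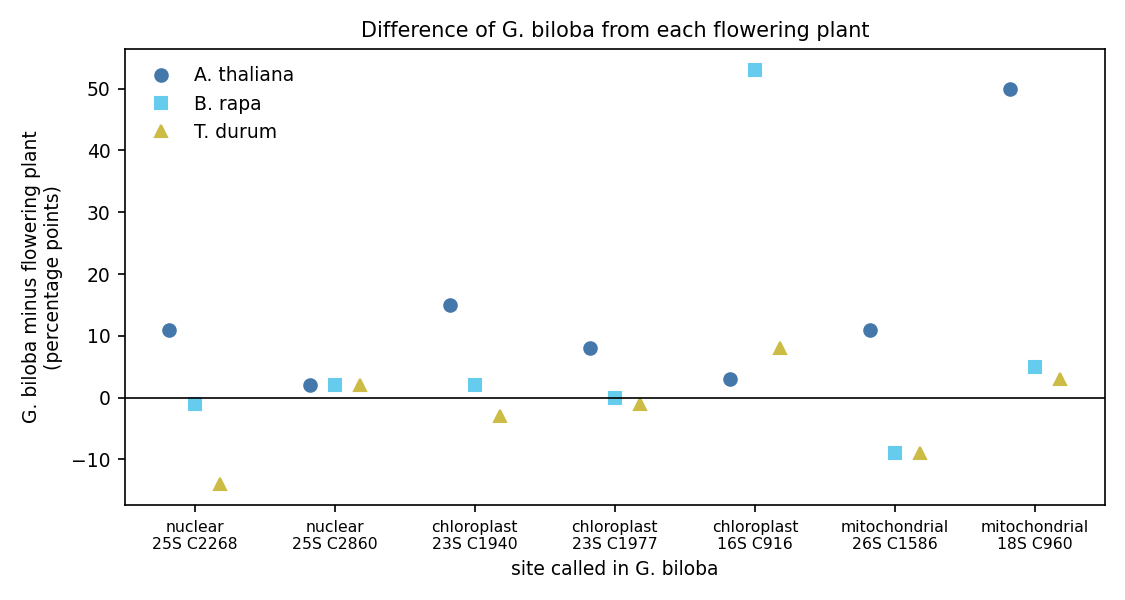
Level of G. biloba minus the level of each flowering plant, in percentage points, at the 7 sites called in G. biloba. All 7 differences from A. thaliana are above 0, and the points at 53 and 50 are C916 against B. rapa and C960 against A. thaliana.

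G. biloba was above all 3 flowering plants at 3 sites, C2860, C916 and C960, which belong to 3 different genomes. The margin over the nearest flowering plant was 2 points at C2860, 3 at C916 and 3 at C960, so none of them reached 5 points. At C960 the nearest plant was T. durum, whose mitochondrial and chloroplast references there differed at 1 of 41 bases. In G. biloba they differed at 2 of 41 bases with cytosine read as thymine. The part of chloroplast reads in either value was not tested. G. biloba was not below all 3 flowering plants at any of its called sites. The percentages at called sites are listed as whole numbers, and a margin of this size cannot be set against a replicate spread.

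Mitochondrial and chloroplast rRNA carry corresponding positions, which allows levels to be compared between organelles of 1 plant. An alignment of each mitochondrial reference with the chloroplast reference of the same plant paired C960 with C916, C1586 with C1977 and C1549 with C1940. In G. biloba the first pair had 78% and 84%, and the second 83% and 90%, so the chloroplast site was higher by 6 and 7 points. The third pair had 1.63% in mitochondrial and 85% in chloroplast rRNA, a difference of 83.4 points. That difference was 62 points in A. thaliana and 69.2 points in B. rapa, and in T. durum it was -1 point, with the same limit on its reference. The 41 bases around the third pair differed at 3 positions in G. biloba, and the longest exact run shared through the site was 27 bases. Around the second pair 8 of the 41 bases differed, and the levels were 7 points apart. Around the first pair 3 of the 41 bases differed, or 2 with cytosine read as thymine. The run shared through C960 was then 69 bases. The part of chloroplast reads in the C960 value of G. biloba was not tested, so its 2 levels may not be separate.

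**Figure D3:**
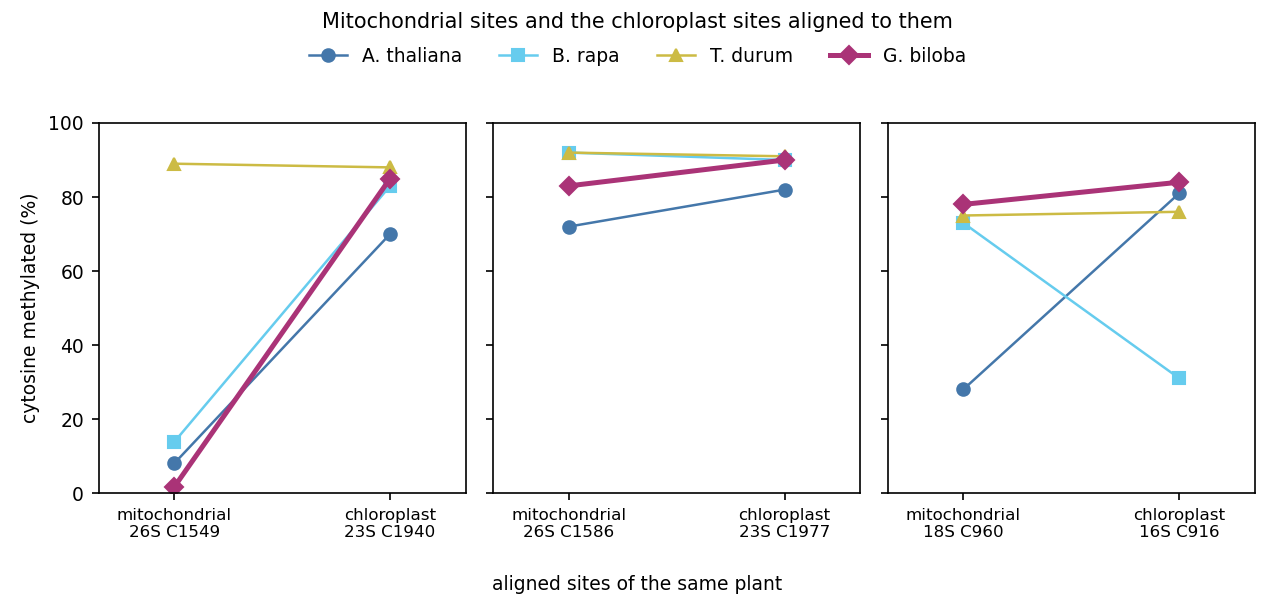
Methylation level (%) of 3 mitochondrial sites, on the left of each panel, and of the chloroplast site aligned to each, on the right, with 1 line per plant. The G. biloba line climbs from 1.63% to 85% in the panel of C1549, from 83% to 90% in that of C1586 and from 78% to 84% in that of C960.

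One listed position of the large subunit in each genome adjoined a shared sequence. The run taaggtagc, of 9 bases, occurred in the G. biloba sequences of nuclear 25S C2268, chloroplast 23S C1940 and mitochondrial 26S C1549. The cytosine measured was the base directly after this run in nuclear rRNA and the base directly before it in both organelles. The levels in G. biloba were 77% after the run in nuclear rRNA, and 85% and 1.63% before it in chloroplast and mitochondrial rRNA. The match describes these 3 sequences, which were chosen because they hold listed sites, and C1549 was not called in G. biloba. The other large subunit sites called in G. biloba, C2860, C1977 and C1586, did not adjoin the run.

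The remaining listed positions were not called in G. biloba. They include 6 positions of nuclear 18S rRNA, from C1703 to C1717, which were called in T. durum at 52% or 53%. G. biloba has cytosines at 4 of them, with 0.189% at C1703, 0.143% at C1713, 0.105% at C1714 and 0.214% at C1717. At C1703, G. biloba and T. durum have a cytosine whereas A. thaliana and B. rapa have T, so among the listed positions this was the one where G. biloba and T. durum alone shared a cytosine. At C1715 and C1716 G. biloba has G. Where A. thaliana has a cytosine in this stretch, the listed level was at most 0.300%, and B. rapa was at 0.166% and 0.158% at C1714 and C1717. The sequences of the 15 bases, with the listed positions in capitals, show the changes from A. thaliana to G. biloba at T1C and C13G, and from T. durum to G. biloba at C13G and C14G.
Nuclear 18S, C1703 to C1717, G. biloba: CggttcgccgCCGGC
Nuclear 18S, C1703 to C1717, A. thaliana: TggttcgccgCCCGC
Nuclear 18S, C1703 to C1717, T. durum: CggttcgccgCCCCC

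With 20 bases on each side, the predicted fold of this stretch had a free energy of -24.2 kcal per mol in G. biloba, -34.4 in A. thaliana and -39 in T. durum. All 4 listed cytosines of G. biloba were paired in its predicted fold, as were all 4 of A. thaliana and all 6 of T. durum. The part of structure in the percentages was not tested. In TAIR10.1 the stretch runs from 5408 to 5422 on chromosome 2, plus strand, in the 18S rRNA gene AT2G01010. A further copy runs from 14199379 to 14199393 on chromosome 3, plus strand, in the 18S rRNA gene AT3G41768. Position 1887 of chloroplast 23S rRNA is A in all 4 land plants.

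The called sites were few among the cytosines of G. biloba. Its 10 distinct references held 3363 cytosines, of which 7, or 0.208%, were called. The coverage of these cytosines is not given, so one that was not called can also be unmeasured. A. thaliana had 7 of 3394 and T. durum 14 of 3445. Within 20 bases of the called sites G. biloba had 63 further cytosines that were not listed in the table. The 4 small rRNAs (5.8S, chloroplast 4.5S and 5S, mitochondrial 5S) held 127 cytosines and no called site. The nuclear 5S line repeats the 5.8S sequence and was not counted again. The number of sites listed beside each reference equalled the number of called sites for all 10.

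The cytosines at the 7 called sites were present in both A. thaliana and T. durum. Over all 3236 cytosines of the 6 large G. biloba references, 84.3% were cytosines in both, with 82.5% in nuclear 25S, 93.9% in chloroplast 23S and 66.6% in mitochondrial 18S. Identity over 10 bases on each side of the called sites averaged 97.9% to A. thaliana and 92.9% to T. durum. At C2268 and C2860 the flank was 100% identical to both plants, against a median of 90% over the cytosines of the same rRNA, of which 71.5% had a lower value against A. thaliana. At C1940 and C1977 the flank was 100% identical to both, equal to the median against A. thaliana and above that of 95% against T. durum. At C1586 it was 100% identical to A. thaliana, equal to the median, and 80% identical to T. durum, below the median of 90%. At C916 the flank was 90% identical to both, below the median of 100% for chloroplast 16S, and 3.90% of the cytosines there had a lower value against A. thaliana. At C960 it was 95% identical to A. thaliana, equal to the median of mitochondrial 18S, and 80% identical to T. durum, above the median of 75%. Bases found in G. biloba alone, where A. thaliana and T. durum agreed, made up 4.70% of nuclear 25S and 2.83% of nuclear 18S. They made up 2.04% of chloroplast 23S, 1.48% of chloroplast 16S, 5.09% of mitochondrial 26S and 7.62% of mitochondrial 18S. For bases found in T. durum alone the shares were, in the same order, 4.13%, 2.55%, 2.50%, 2.55%, 8.79% and 14.9%. They were thus higher than those of G. biloba in the chloroplast and mitochondrial rRNAs. Those of A. thaliana alone were lower than those of G. biloba in each rRNA. No base found in G. biloba alone lay within 20 bases of C2268, C2860, C1940, C1977 or C1586. The nearest was 3 bases from C916 and 1 base from C960, the small subunit sites of the 2 organelles.

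The large references of G. biloba were closest to A. thaliana in chloroplast rRNA. Identity was 97.8% for chloroplast 16S, 96.9% for chloroplast 23S, 94.0% for nuclear 18S, 89.1% for nuclear 25S, 88.1% for mitochondrial 26S and 78.1% for mitochondrial 18S. Against T. durum it was lower in each of these 6, from 95.8% for chloroplast 16S to 67.4% for mitochondrial 18S. Among the small rRNAs, identity to A. thaliana was between 92.1% for 5.8S and 95.7% for mitochondrial 5S. Identity to T. durum was higher for 5.8S, with 93.9%. It was lower for the other small rRNAs, from 85.4% for chloroplast 4.5S to 92.4% for chloroplast 5S. The mitochondrial values against T. durum carry the limit of its references. Its mitochondrial 26S shared an exact run of 178 bases with its chloroplast 23S, and its mitochondrial 18S 56 bases with its chloroplast 16S. The mitochondrial values also depend on gaps. With gaps left out, mitochondrial 18S was 86.9% identical to A. thaliana and 75.9% to T. durum. Mitochondrial 26S was then 92.3% identical to A. thaliana, above the 90.4% of nuclear 25S, so that their order turned. Against T. durum, leaving gaps out also moved chloroplast 23S from 92.6% to 95.3% and chloroplast 4.5S from 85.4% to 92.6%.

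**Figure D4:**
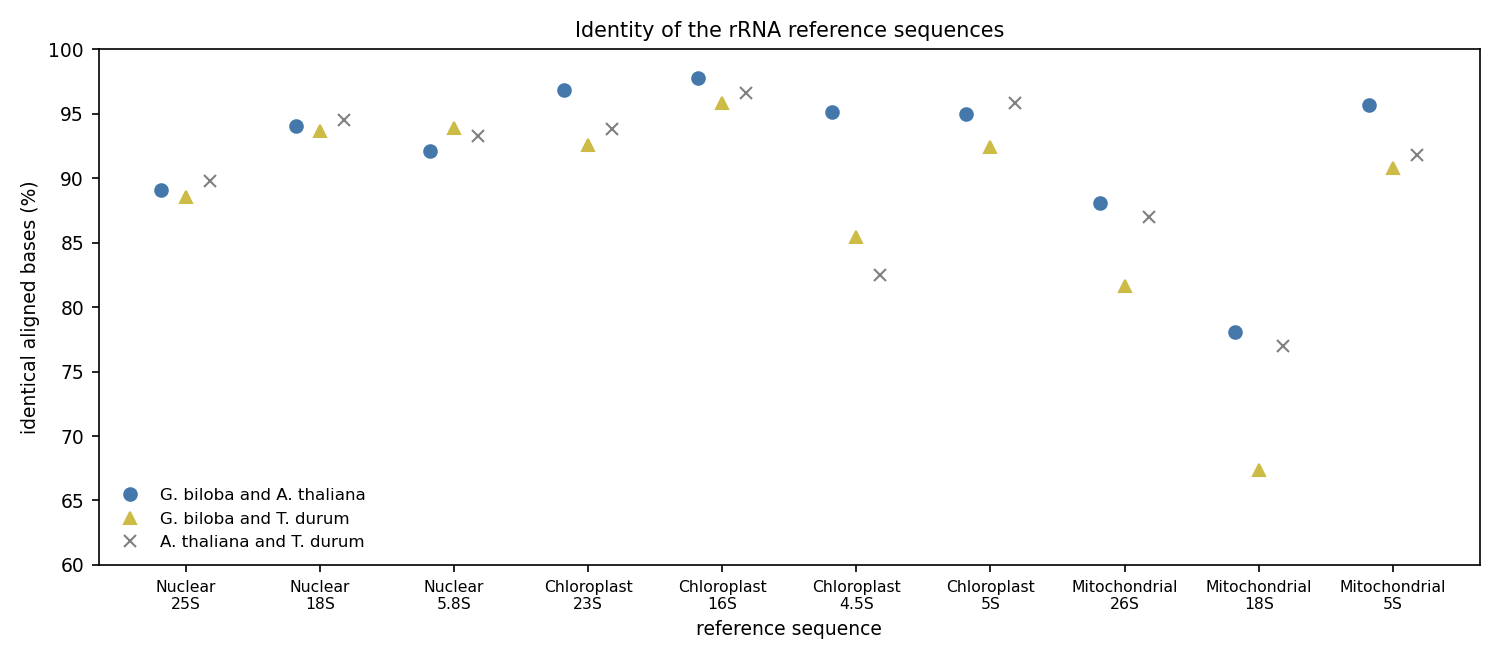
Percent of aligned bases that are identical, for each of 10 rRNA references, between G. biloba and A. thaliana, G. biloba and T. durum, and A. thaliana and T. durum; the axis starts at 60%. The lowest points of all 3 pairs are in mitochondrial 18S, with 67.4% between G. biloba and T. durum.

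Of the 11 G. biloba references, 5 came from a database (the 4 chloroplast ones and mitochondrial 18S). The other 6 were built from RNA-seq reads with the Arabidopsis sequence as guide, among them both large nuclear rRNAs and mitochondrial 26S. All 11 T. durum references were guided consensus sequences as well. Whether bases of the guide remain in a consensus was not tested. The mitochondrial 26S sequence of G. biloba held 134 undetermined bases, none of them within 20 bases of a listed site. The mitochondrial 18S sequence of T. durum held 109. The base in the table equalled the aligned reference base at 16 of 16 positions in G. biloba, and at 48 of 48 over G. biloba, A. thaliana and T. durum. The authors numbered positions by aligning the same references to those of Arabidopsis, so this match is no check on the references. The sequences in 4 B. rapa lines (both large nuclear rRNAs and the large subunit rRNA of each organelle) equalled those of G. biloba, so B. rapa sequences were not used here and only its percentages were.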

How the data were processed

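Total RNA was sequenced after bisulfite treatment (RBS-seq). Per the methods, the authors trimmed and aligned reads with CLC Genomics Workbench (version not given in the sources used here) to rRNA references with each cytosine turned into thymine. The percentages were used as deposited by the authors. Each is the share of cytosine among cytosine and thymine reads, with a call at 20% or more and at least 5 reads, and no normalization. A spike-in RNA without m5C was their conversion control. Beyond that minimum the depth behind each percentage is not given with it, so no interval or test was made. A. thaliana was the authors' mean, so single replicates could not be left out. Algae were not used here. The submitters' notes name TAIR10, and coordinates are those of TAIR10.1.

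References were aligned with MAFFT 7.526 (local pairs, 100 iterations). In identities an inner gap counted as a difference, and N and end gaps were left out. The alternative was the pairwise aligner of Biopython 1.88 (match 2, mismatch -3, gap opening -5, gap extension -2). Both were tested on simulated sequences. Folds used ViennaRNA 2.7.2, and Python 3.11.15 was used. All rRNAs and listed positions are named, whatever their values, and 41 bases are shown around the sites called in G. biloba and C1549. The positions, comparisons and sequences were chosen with earlier results of these data known. The alternatives were other call minimums, leaving out each flowering plant, medians for means, all percentages, other flanks and other alignments.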

Additional observations from a re-analysis of the deposited data

Results flagged for a closer look

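Values that stood far from those of the other plants were looked for at the 11 positions with a percentage in all 4 land plants, by the gap to the nearest plant relative to the whole range. Plants are not replicates of a group, so the chance rate of about 1 of 20 groups for such a gap cannot be taken over to them. Positions listed because 1 plant was called there also build in a lone high value. Of 8 values that stood apart, 1 was in G. biloba, its 84% at nuclear 25S C2860. The 3 flowering plants were equal there, so that the gap of 2 points was the whole range. At 3 sites a flowering plant stood apart from G. biloba and the rest, with 82% in A. thaliana at chloroplast C1977, 31% in B. rapa at chloroplast C916 and 28% in A. thaliana at mitochondrial C960. At 4 positions without a call in G. biloba, the values were 89% in T. durum at mitochondrial C1549, 53% and 52% in T. durum at nuclear 18S C1714 and C1717, and 1% in A. thaliana at mitochondrial C1566.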

How the results depend on the processing

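No replicate spread or depth was given with the single percentages. A value was therefore counted as moved when it shifted by more than 1 percentage point, or a count by more than 1.5 times. The count of 7 called sites in G. biloba held at minimums of 10% and 50%. The 3 sites above all flowering plants became 0 when a margin of 5 points was asked, and 4 without T. durum. The median difference of 2 points from the flowering plants turned to -0.5 without A. thaliana, and was 3.5 without B. rapa and 5 without T. durum. As a median over sites, the absolute difference was 11 points from A. thaliana, 2 from B. rapa and 3 from T. durum, and over all positions with a percentage its mean was 8.96, 7.66 and 25.9 points, the last through the 18S positions and C1549. Over all percentages the G. biloba medians were 0.202% in nuclear and 39.8% in mitochondrial rRNA, since uncalled positions enter, and 85% in chloroplast rRNA. The median identity of the references to T. durum moved from 91.6% to 93.3% with gaps left out. Flank identity over 20 bases on each side averaged 98.9% to A. thaliana and 95% to T. durum. Without conversion, the run shared with the chloroplast fell from 69 to 16 bases at C960 and from 13 to 5 bases at C1586 in G. biloba. Of 40 alternatives for single references, 17 moved an identity by more than 1 point. The fold energy of G. biloba was -16.6 kcal per mol with 10 bases and -33.8 with 30 bases on each side, above both other plants at each length. No paired analysis was possible because the result comes from no test. What depth limits cannot be said without read counts at the single sites.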
